A study of Mus musculus with 3 samples.

Results

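The genes described here are a set of myeloid pattern-recognition receptors and their adaptor: the C-type lectin receptor genes Clec4d, Clec4e, Clec4n and Clec5a, the TREM receptor gene Trem1, and Tyrobp, which encodes a signalling chain. They were taken by symbol from the gene names in the deposited matrices, and 6 of the 7 genes sought were found among 28692 genes. Clec7a, which encodes dectin-1, is not analysed here. Each was followed through the cell classes, the myeloid clusters and the neutrophil states of every library. The classes and states were set without these genes, without the other genes of their pathway and without Icam1.

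The libraries were 3 samples of 1 group, single-cell RNA from mouse mammary tumours that grew for 4 weeks after 2208L tumour cells were injected into the mammary gland. Tumours were taken at a diameter of 0.7 to 1 cm, and viable cells positive for the leukocyte antigen CD45 and negative for DAPI were sorted. The sources used here give no strain, age or genotype of the hosts, and no tissue without a tumour was compared. The labels name the cell type as tumor although the sort was for leukocytes, mention a 5′ platform beside a 3′ protocol, and do not say whether the libraries are separate animals, so p-values measure only the spread between these samples.

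Clec4e encodes Mincle, Clec4d its partner MCL and Clec4n dectin-2, which bind glycolipids and glycans of microbes and, for Mincle, material from dying cells. These receptors carry no signalling motif of their own and pair with the Fc receptor gamma chain, encoded by Fcer1g, whereas CLEC5A and TREM1 pair with DAP12, the product of Tyrobp. Both chains recruit the kinase SYK, which passes the signal to the CARD9, BCL10 and MALT1 complex and on to cytokine and chemokine genes. TREM1 is known as an amplifier of inflammatory responses in neutrophils and monocytes, and DAP12 also serves activating receptors of NK cells and plasmacytoid dendritic cells.

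Clec4n, Clec4d and Clec4e are neighbours on mouse chromosome 6 (GRCm38, GENCODE annotation; all are protein-coding genes). Clec4n (ENSMUSG00000023349) lies at chr6:123229843-123247021 on the plus strand, and Clec4d (ENSMUSG00000030144) follows 15089 bases further on at chr6:123262111-123275265, also on the plus strand. Clec4e (ENSMUSG00000030142) lies another 6523 bases on at chr6:123281789-123289870, on the minus strand. Clec5a (ENSMUSG00000029915) is on the same chromosome but far from them, at chr6:40574894-40585821 on the minus strand. Tyrobp (ENSMUSG00000030579) is at chr7:30413760-30417585 on the plus strand. Trem1 (ENSMUSG00000042265) is at chr17:48232768-48246924 on the plus strand and overlaps a processed pseudogene on the minus strand. Of the 31-base words in the Clec4n transcripts, 1.96% also occur in another gene, and the shares were 0.703% for Trem1 and 0 for the other 4 genes.

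Promoter windows are shown for Clec4d and Clec4e, whose levels ran together over the neutrophil states, for Clec5a, which ran another way, and for Trem1, which followed neither. Each is the 250 bases before the gene start in RefSeq (GRCm38.p6), read 5′ to 3′ on the gene's own strand. Capitals mark a PU box (GAGGAA) or a C/EBP-type word (TTNNGNAA) on either strand, the core letters bound by the myeloid factors PU.1 and C/EBP.
Clec4d, chr6:123261857-123262106, plus strand: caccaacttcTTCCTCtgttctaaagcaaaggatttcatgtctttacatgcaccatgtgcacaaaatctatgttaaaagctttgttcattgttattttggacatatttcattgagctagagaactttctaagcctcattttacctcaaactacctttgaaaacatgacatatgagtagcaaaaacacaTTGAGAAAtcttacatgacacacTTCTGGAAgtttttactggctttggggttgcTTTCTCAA
Clec4e, chr6:123289872-123290121, minus strand: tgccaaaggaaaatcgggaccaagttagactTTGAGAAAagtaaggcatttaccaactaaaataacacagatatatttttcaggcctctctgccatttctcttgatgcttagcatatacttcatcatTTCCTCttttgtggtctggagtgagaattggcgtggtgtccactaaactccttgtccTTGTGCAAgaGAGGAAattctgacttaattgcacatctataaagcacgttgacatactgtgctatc
Clec5a, chr6:40585806-40586055, minus strand: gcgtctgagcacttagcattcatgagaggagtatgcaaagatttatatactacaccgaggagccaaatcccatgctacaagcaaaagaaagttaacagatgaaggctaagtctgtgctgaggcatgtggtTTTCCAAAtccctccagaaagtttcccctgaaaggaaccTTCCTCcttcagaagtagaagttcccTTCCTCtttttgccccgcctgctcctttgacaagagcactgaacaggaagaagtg
Trem1, chr17:48232489-48232738, plus strand: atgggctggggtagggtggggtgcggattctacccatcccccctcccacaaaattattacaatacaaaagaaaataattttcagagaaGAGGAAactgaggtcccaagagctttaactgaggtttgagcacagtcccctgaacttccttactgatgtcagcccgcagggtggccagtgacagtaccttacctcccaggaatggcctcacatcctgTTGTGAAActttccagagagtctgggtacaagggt
Clec4d held 1 PU box and 3 C/EBP-type words, Clec4e 2 and 2, Clec5a 2 and 1, and Trem1 1 and 1. Both words are common: of 32851 windows of this length, 23.3% held the PU box and 36.8% the C/EBP-type word. The AP-1 word (TGANTCA, in 6.75% of windows) and the NF-kB motif (in 7.25%) had 0 matches in these 4 windows. A match is a description of letters and was not tied to binding.

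Total depth was 9445914 to 15259236 UMIs per library (unique molecular identifiers, each counting 1 captured transcript), and 3838 to 6006 barcodes per library were kept, with medians of 1239 to 1549 UMIs. Libraries shared 25 to 37 barcode sequences pairwise. The barcodes fell into neutrophil-like (6068 in all), T-cell-like (3216), monocyte/macrophage-like (3139), dendritic-cell-like (513), NK-cell-like (501), epithelial-like (273) and plasmacytoid-dendritic-cell-like (209) classes, named from markers fixed in a list. The 10 neutrophil markers summed to 64707 to 72916 CPM in neutrophil-like sums and to 1580 to 2207 in monocyte/macrophage-like sums, where CPM is a gene's UMIs in a class and library scaled to a fixed total of all UMIs counted there. The depth per barcode differed between these classes, with medians of 902 and 4281 UMIs.

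The first question was which cells of the tumour transcribed these receptors. All 5 receptor genes had their highest level in neutrophil-like barcodes in every library, and in each case the 3 neutrophil-like values lay above all values of every other class. Tyrobp was spread over the myeloid classes and NK-cell-like barcodes.

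Clec4e stood at 1152, 1384 and 1289 CPM in the neutrophil-like sums of replicates 1, 2 and 3, and at 82.9, 89.6 and 70.6 CPM in the monocyte/macrophage-like sums. Clec4d, its partner and neighbour, stood at 631, 590 and 588 CPM against 49.7, 45.6 and 36.4. Trem1 stood at 488, 514 and 573 CPM against 38.8, 41.1 and 26.5. For these 3 genes the libraries differed little and the groups were far apart. The other 5 classes tested were lower still, with mean Clec4e levels of 21.4 to 36.7 CPM, mean Clec4d levels of 8.01 to 25.5 and mean Trem1 levels of 8.42 to 16.3. Among these 5 classes, each gene's neighbours in the order of levels overlapped in their ranges. The B-or-plasma-cell-like class, too small to test, had 13 Clec4e UMIs, 12 of them in replicate 1, and the 228 unnamed barcodes had 194, at 574 ± 26.4 CPM.

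Clec4n and Clec5a were less concentrated. Clec4n stood at 963, 866 and 1087 CPM in neutrophil-like sums, at 320, 219 and 309 in monocyte/macrophage-like sums and at 217, 153 and 204 in dendritic-cell-like sums. Each of these 3 classes lay clear of the next in the order, although the lowest monocyte/macrophage-like value (219) came close to the highest dendritic-cell-like value (217). The other 4 classes had mean Clec4n levels of 20.5 to 43.1 CPM. Clec5a stood at 394, 347 and 515 CPM in neutrophil-like sums and at 68.7, 60.1 and 82.2 in monocyte/macrophage-like sums, followed by dendritic-cell-like sums at 35.1 ± 11.5 (SD, n = 3), whose range overlapped that of plasmacytoid-dendritic-cell-like sums (14.2 ± 13.2). In NK-cell-like sums Clec5a had 3 UMIs in all.

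Tyrobp, the DAP12 gene, had another order. Plasmacytoid-dendritic-cell-like sums held 5881, 5686 and 6544 CPM and neutrophil-like sums 4801, 5784 and 4769, and these ranges overlapped. Monocyte/macrophage-like sums followed at 3669, 3716 and 3526, clear of the neutrophil-like values. NK-cell-like (2104 ± 305) and dendritic-cell-like sums (1768 ± 205) overlapped, and T-cell-like (176 ± 46.9) and epithelial-like sums (173 ± 60.3) were lowest. The plasmacytoid-dendritic-cell-like class held 24, 160 and 25 barcodes in the libraries, and its summed macrophage markers ranged from 226 to 6418 CPM; the part of that range in its Tyrobp level was not tested.

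**Figure D1:**
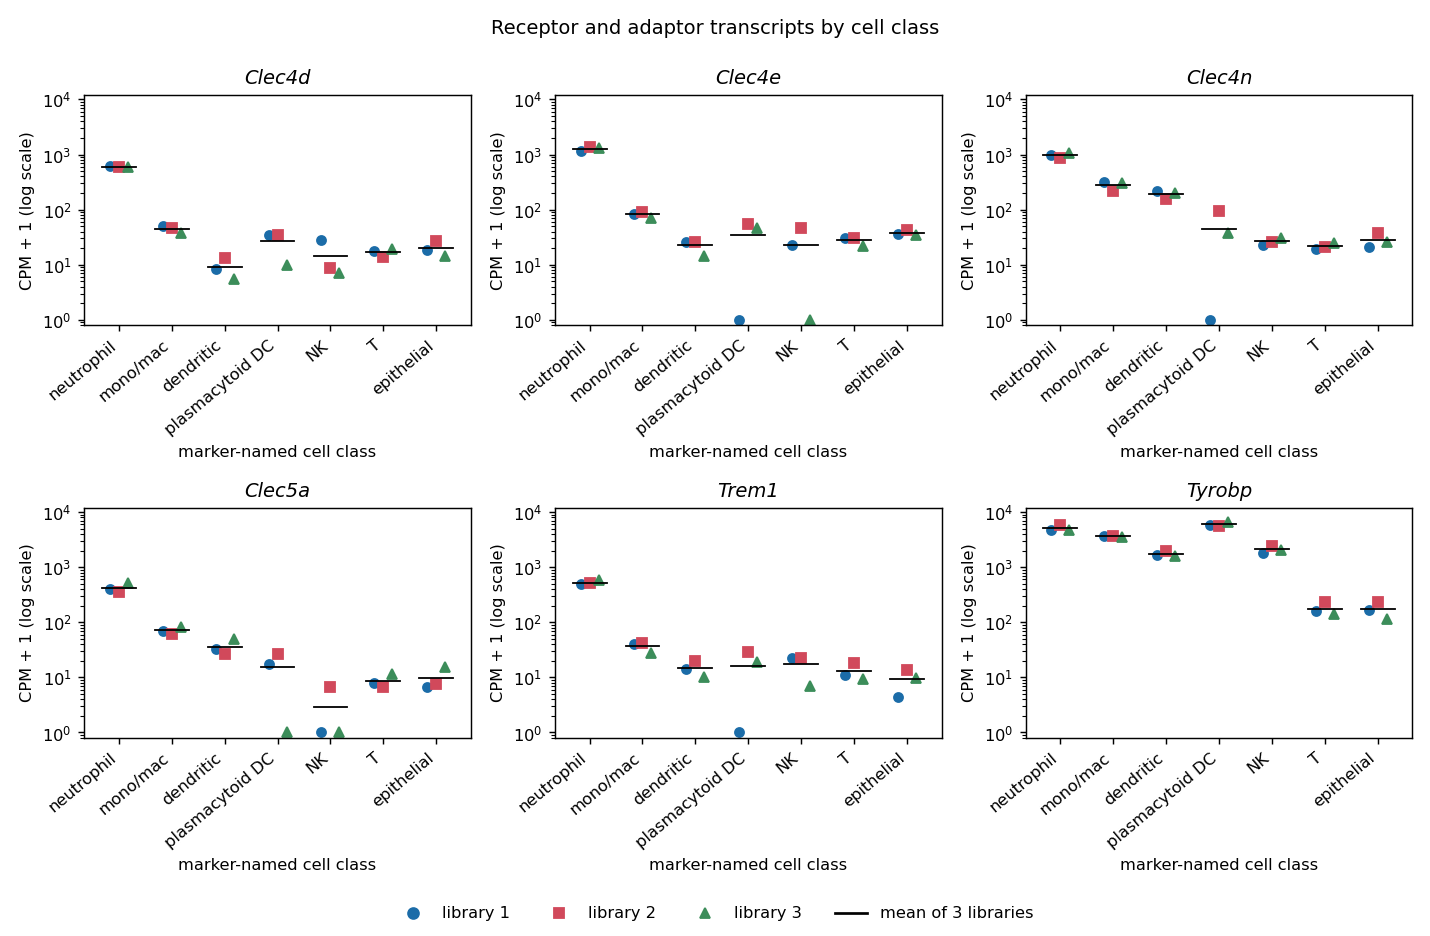
Level of each gene (CPM + 1, log axis) in each cell class, with 1 point per library and a bar at the mean of the 3 libraries. The 5 receptor genes are highest in neutrophil-like sums (for Clec4e 1152 to 1384 CPM), whereas Tyrobp in plasmacytoid-dendritic-cell-like sums (5686 to 6544) overlaps its neutrophil-like range (4769 to 5784).

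In edgeR's quasi-likelihood test, with library as a block and Benjamini-Hochberg adjustment over 9470 genes, all 6 genes were higher in neutrophil-like than in monocyte/macrophage-like sums, in 3 of 3 libraries. Of all genes tested, 66.5% differed between these classes and 29.5% were higher in neutrophil-like sums, so a call by itself was common. The log2 difference was 4.18 ± 0.17 for Clec4e (standard error; adjusted p = 6.71e-20), 4.07 ± 0.13 for Trem1 (adjusted p = 1.22e-22) and 3.98 ± 0.15 for Clec4d (adjusted p = 2.44e-20). It was smaller for Clec5a (2.76 ± 0.10, adjusted p = 1.39e-20), Clec4n (1.99 ± 0.17, adjusted p = 5.39e-12) and Tyrobp (0.68 ± 0.12, adjusted p = 9.93e-06). The median of the 6 genes was 3.37, beside -0.14 for all genes tested. With library totals in place of TMM scaling the median of all genes moved to -0.34. In the other class comparisons it moved from between -0.07 and 0.05 to between -0.38 and -0.15.

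The other classes were compared in the same fit. Against T-cell-like sums the log2 differences of the 6 genes were 5.07 to 5.98, with all 6 called higher (background 32% of genes higher), and against epithelial-like sums they were 5.22 to 6.25, with all 6 called higher (33.8%). Against dendritic-cell-like sums all 6 were called higher (27.4%), from 6.20 for Clec4d down to 2.48 for Clec4n and 1.66 for Tyrobp. Against NK-cell-like sums all 6 were called higher (24.2%), with Tyrobp at 1.51 and Clec4d, Clec4e, Clec4n and Trem1 at 5.12 to 5.93. Against plasmacytoid-dendritic-cell-like sums 5 of 6 were called higher (23.2%). There Tyrobp had a log2 difference of 0.24 ± 0.12 (edgeR, adjusted p = 0.113), while its CPM was higher in neutrophil-like sums in 1 of 3 libraries. With library totals that difference was -0.25 (adjusted p = 0.0945), and without replicate 3 it was 0.52 (adjusted p = 0.00684). It was also called with no filter on low counts, at a coarser clustering and with the members among the variable genes, so its direction depended on the scaling and its call on several settings.

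Because the classes differ in size and depth, the source of each transcript in the tumour's sorted cells was also counted. Neutrophil-like barcodes supplied 79.3% ± 8.42 of the Clec4d UMIs (SD, n = 3), 80.5% ± 8.30 of Clec4e and 79.4% ± 10.2 of Trem1. They supplied 66.4% ± 11.2 of Clec5a and 54.3% ± 12.9 of Clec4n, and monocyte/macrophage-like barcodes 28.0% and 38.0% of these. In replicate 1 the Clec4n shares of these classes were nearly equal, at 45.6% and 46.0%. For Tyrobp the mean share was 33.0% ± 11.6 from neutrophil-like and 54.9% ± 8.71 from monocyte/macrophage-like barcodes, but in replicate 3 the shares were 46.3% and 45.5%. These totals rest on 4694 UMIs for Clec4d, 9896 for Clec4e, 11119 for Clec4n, 3933 for Clec5a, 4141 for Trem1 and 101111 for Tyrobp.

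Detection per barcode was compared after thinning every barcode to 600 UMIs, which left out 760 shallower neutrophil-like, 11 monocyte/macrophage-like and 29 T-cell-like barcodes. In neutrophil-like barcodes Clec4e was detected in 39.9% ± 3.12 (SD over 3 libraries), Clec4n in 36.4% ± 2.69, Clec4d in 25.8% ± 0.81, Trem1 in 24.0% ± 1.39, Clec5a in 19.5% ± 3.23 and Tyrobp in 91.4% ± 2.54. Unthinned, these shares were 48.8%, 47.4%, 35.8%, 33.3%, 28.0% and 94.8%. T-cell-like barcodes, which are not known to express these receptors, served as a guide to the level of free RNA. They gave 1.46% for Clec4e, 1.15% for Clec4n, 0.760% for Clec4d, 0.446% for Trem1 and 0.259% for Clec5a. Their median was 1425 UMIs before thinning. Monocyte/macrophage-like barcodes lay above these shares, at 4.82% for Clec4e, 13.6% for Clec4n, 2.49% for Clec4d, 2.08% for Trem1 and 3.85% for Clec5a. Epithelial-like barcodes gave 5.62% ± 0.94 for Clec4e and 3.34% ± 1.81 for Clec4d, above the monocyte/macrophage-like shares. For Clec4n (3.74%), Trem1 (0.775%) and Clec5a (0.750%) they lay below them. The part of free RNA in the monocyte/macrophage-like shares was not tested. Tyrobp was detected in 85.8% of monocyte/macrophage-like and 6.78% of T-cell-like barcodes. At this depth 80.5% ± 0.566 of neutrophil-like barcodes held at least 1 of the 5 receptor transcripts, 44.6% ± 2.73 at least 2 and 16.9% ± 2.38 at least 3.

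Within the monocyte/macrophage-like and dendritic-cell-like classes the receptors differed between clusters, which are given as levels with no test. Clec4n was highest in macrophage-like cluster 7 (1372 barcodes, led by Arg1, Ms4a7, C1qb and Trem2), at 377, 258 and 391 CPM. It averaged 230 ± 26.6 in monocyte-like cluster 6 and 196 ± 27.7 in macrophage-like cluster 9 (417 barcodes, led by Ccl8, Cbr2, Folr2 and Pf4). Clec4n thus had higher values in cluster 7 than in cluster 9 in every library. Clec4e had the other order: 143, 144 and 107 CPM in cluster 9 and 157, 104 and 107 in the monocyte-like cluster, against 50.2 ± 12.7 in cluster 7. Clec4d (75.5 ± 25.2 against 34.4 ± 2.81) and Trem1 (45.2 ± 17.1 against 28.8 ± 3.67) were likewise higher in cluster 9 than in cluster 7. For Trem1 the difference was small in replicate 3, at 26.7 against 24.7 CPM. Clec4e, Clec4d and Trem1 are also the genes most concentrated in neutrophil-like barcodes. The part of free RNA or doublets in this order was not tested. Clec5a averaged 80.9 ± 13.6 in cluster 7, 62.0 ± 5.60 in the monocyte-like cluster and 43.5 ± 4.94 in cluster 9. Macrophage-like cluster 18 (132 barcodes, led by cycling genes such as Birc5) had 264 ± 76.1 for Clec4n and 83.2 ± 31.9 for Clec5a. Among dendritic-cell-like barcodes Clec4n averaged 218 ± 42.3 in cluster 5 (419 barcodes, led by Plet1 and Xcr1) and 34.1 ± 12.1 in cluster 20 (94 barcodes, led by Ccr7 and Fscn1).

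**Figure D2:**
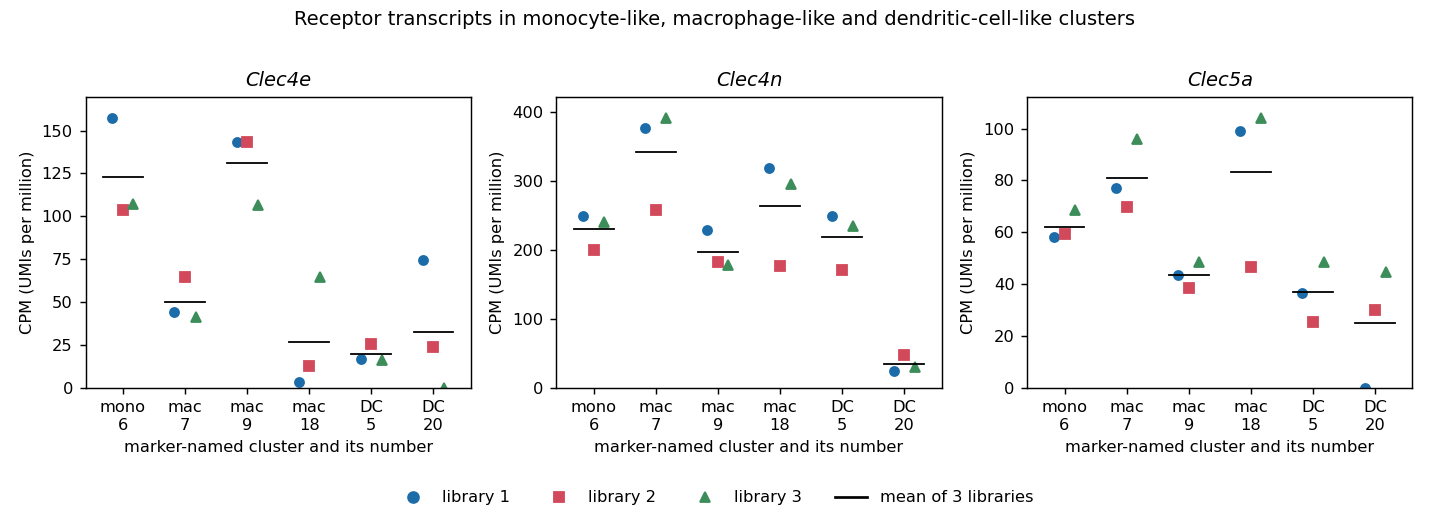
Level (CPM) of Clec4e, Clec4n and Clec5a in the monocyte-like (mono), macrophage-like (mac) and dendritic-cell-like (DC) clusters, with 1 point per library and a bar at the mean. Clec4n is highest in macrophage-like cluster 7 (258 to 391 CPM), while Clec4e is higher in clusters 6 and 9 than in cluster 7.

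The second question was how the genes varied among the neutrophil-like barcodes, which were divided into 5 states, with 28 barcodes left out. State 2 (1080 barcodes, led by Retnlg, Wfdc21 and Lrg1) carried the granule and maturation genes of blood neutrophils, with a marker sum of 3499 ± 1104 CPM against means of 115 to 1131 elsewhere. State 3 (1616 barcodes) was led by Hilpda and Cxcl3, state 1 (2267 barcodes) by Ltc4s, Mt1 and Siglecf, and state 0 (511 barcodes) by Atf5, Naip2, Aldh2 and Plau. State 4 (566 barcodes) was led by interferon-induced genes such as Cxcl10 and the Ifit genes, with Ly6c2 also among its leading genes. Its summed markers of monocytes were also the highest, at 2691 to 4233 CPM with 1 of 8 at 0, against 137 to 1621 in the others. In the monocyte/macrophage-like class the same 8 markers summed to 1913 to 3238 CPM. The 12 macrophage markers summed to 678 ± 149 CPM in state 4, within the means of 595 to 791 in the other states. The part of the monocyte markers in the levels of state 4 was not tested. The 10 dendritic cell markers summed to 642 to 770 CPM in state 1, the lowest. They summed to 2045 to 2358 in state 3, the highest, where 4 of the 10 were at 0. Clec4d and Clec4e have the same order of these 2 states, and the part of these markers in it was not tested. In the dendritic-cell-like class the same markers summed to 1430 to 1789 CPM. That class had mean levels of 8.01 CPM for Clec4d and 21.4 CPM for Clec4e. Levels by state are a description of groups made from the same barcodes, with no test.

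The 6 genes followed 3 patterns. Clec4d and Clec4e were low in the Ltc4s and Siglecf state and high in all others. Clec4n and Clec5a were high in the Atf5 and Plau state and the Ltc4s and Siglecf state and lowest in the Hilpda and Cxcl3 state. Trem1 and, to a smaller degree, Tyrobp were highest in the Retnlg state.

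Clec4d held 118, 162 and 140 CPM in state 1 of replicates 1, 2 and 3, against 962, 876 and 977 in state 3. It held 787, 661 and 768 in state 2, 889, 585 and 628 in state 0, and 696, 734 and 602 in state 4. State 3 lay above states 2 and 4 without overlap but overlapped state 0, states 2, 0 and 4 overlapped, and state 1 lay below all of them. Clec4e held 460, 625 and 522 CPM in state 1, against 1631, 1734 and 1891 in state 2, 1569, 1768 and 1641 in state 3 and 1405, 1534 and 1456 in state 4. In state 0 it held 1163, 1317 and 1863, the widest spread between libraries. States 2 and 3 overlapped for Clec4e, and state 0 overlapped states 2, 3 and 4. State 4 lay below states 2 and 3 without overlap, and state 1 was again clear of all others.

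Clec4n held 1727, 1496 and 1779 CPM in state 0 and 1357, 1285 and 1602 in state 1, which overlapped. It held 906, 862 and 889 in state 4, 612, 681 and 773 in state 2 and 632, 543 and 597 in state 3, the last of which overlapped state 2. State 3, the highest for its neighbour Clec4d, was thus the lowest for Clec4n. Clec5a held 1188, 805 and 1099 CPM in state 0, clear of the 466, 519 and 767 in state 1. It held 604, 315 and 547 in state 4, 215, 296 and 384 in state 2 and 221, 156 and 168 in state 3, and each of these overlapped the next in the order.

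Trem1 held 1042, 812 and 1080 CPM in state 2 and 906, 746 and 799 in state 4, which overlapped. States 0 (487, 398 and 434), 1 (386, 359 and 484) and 3 (375, 324 and 373) lay lower and each overlapped the next. Relative to its mean Tyrobp varied least, with 6695, 7247 and 6412 CPM in state 2, above all values of the other states, whose means were 4493 ± 317 (state 3) to 5178 ± 788 (state 4). Fcer1g, the gene of the other signalling chain, had a different order, at 7179 ± 289 in state 1, 6976 ± 212 in state 4, 6250 ± 576 in state 0, 5652 ± 816 in state 2 and 3748 ± 298 in state 3.

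**Figure D3:**
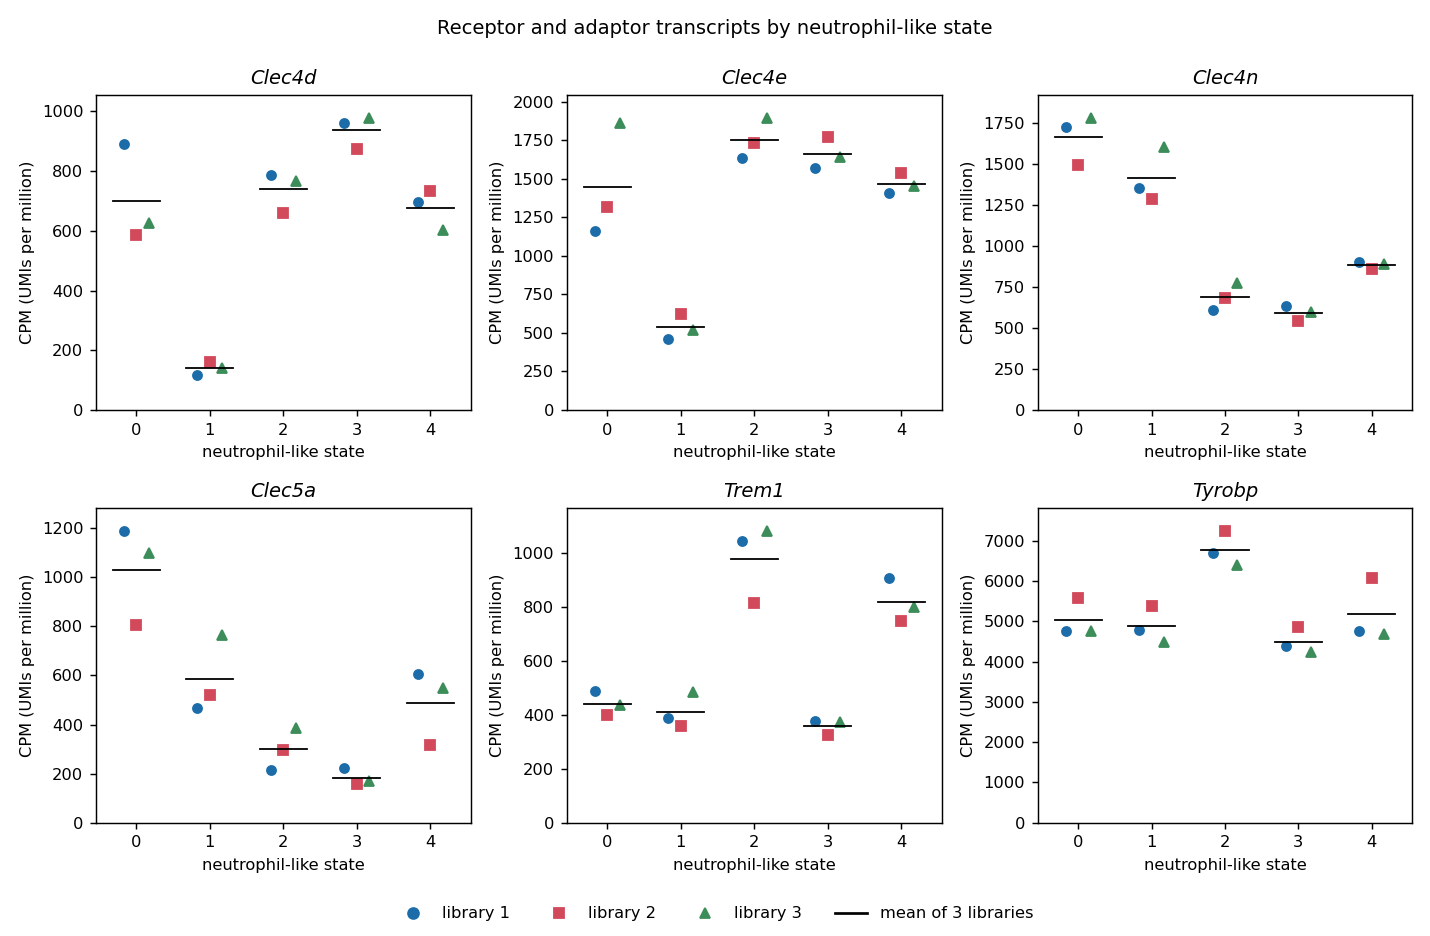
Level (CPM) of each gene in the 5 neutrophil states, with 1 point per library and a bar at the mean. Clec4d (118 to 162 CPM) and Clec4e (460 to 625) are lowest in state 1, Clec5a is highest in state 0 (805 to 1188), and Trem1 is high in states 2 and 4.

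**Figure D4:**
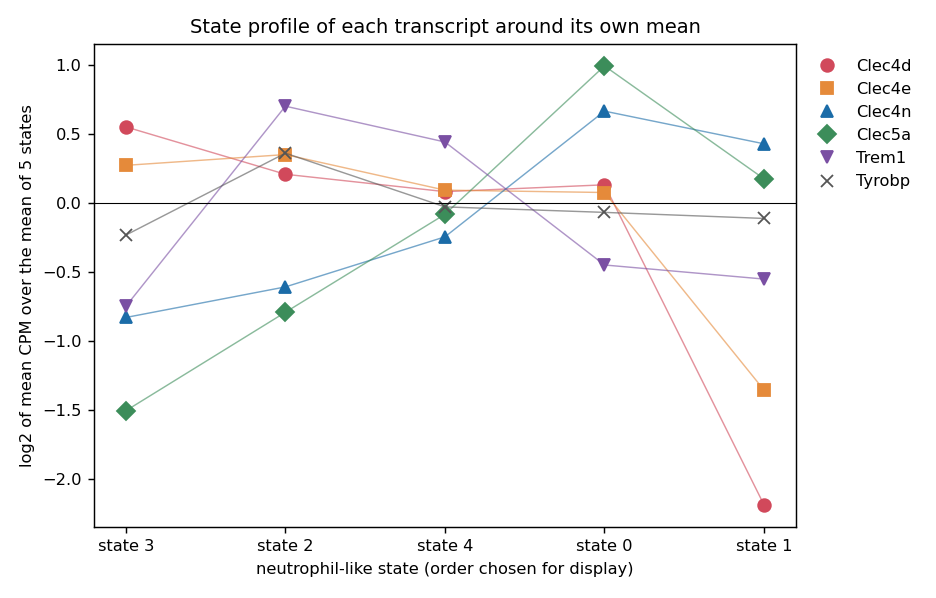
Mean level of each gene in each state as the log2 ratio to that gene's mean over the 5 states. Clec4d and Clec4e drop in state 1, Clec4n and Clec5a drop in states 2 and 3, and Tyrobp spans the narrowest range.

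States were set side by side by a fixed rule, that the 3 libraries of each do not overlap and the means differ at least 2-fold with 10 CPM added to each, and the folds printed here carry the same 10 CPM. Between states 1 and 3 the rule held for 4 of 6 genes, with Clec4n and Clec5a higher and Clec4d and Clec4e lower in state 1. It held for 47.8% of 4293 genes there, 36.8% higher and 11% lower in state 1, so the count of genes is not far from the background. In size, Clec4d was 6.32-fold and Clec4e 3.06-fold lower in state 1 than in state 3, and Clec4n was 2.37-fold and Clec5a 3.10-fold higher. Between states 2 and 3 the rule held for Trem1 alone of the 6, at 2.69-fold higher in state 2 (8.67% of 3575 genes were higher). State 0 differed from state 3 in Clec5a, 5.42-fold higher, and Clec4n, 2.79-fold higher (24.8% of genes were higher), and from state 1 in Clec4d, 4.74-fold higher, and Clec4e, 2.67-fold higher (7.07%). State 1 differed from state 4 in Clec4d and Clec4e, both lower (8.3% of genes were lower), and from state 2 in these and Trem1, all lower (6.04%), and in Clec4n, higher (27.6%). State 3 was lower than state 4 in Clec5a and Trem1 (11.6% of genes were lower). State 0 was higher than state 4 in Clec5a (8.02%), and against state 2 it was higher in Clec4n and Clec5a (19.5%) and lower in Trem1 (5.74%). Between states 2 and 4 the rule held for 0 of 6 genes (8.18% of all genes), and Tyrobp met it in 0 of the 10 pairs of states.

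Over the 15 sums of state and library, which share 3 libraries and differ in depth, Pearson's r of log2(CPM + 10) was 0.94 between Clec4d and Clec4e and 0.93 between Clec4n and Clec5a. Between the pairs it was negative, at -0.54 for Clec4d with Clec4n and -0.56 for Clec4e with Clec4n. It was weaker with Clec5a, at -0.34 for Clec4d and -0.34 for Clec4e. Trem1 and Tyrobp had 0.62. Over the 21 sums of class and library, where the neutrophil-like class sets most of the range, Clec4e and Trem1 had 0.97, Clec4d and Trem1 0.93, Clec4d and Clec4e 0.92 and Clec4n and Clec5a 0.91. These values are descriptions and carry no test.

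The same grouping was looked for within single barcodes thinned to 600 UMIs. Clec4d and Clec4e were detected together in 737 neutrophil-like barcodes, 1.34 times as many as independent detection within libraries would give (1.26 to 1.41 over libraries). Within states the ratio was 1.12. Clec4n and Clec5a were detected together in 534 barcodes, a ratio of 1.36 (1.32 to 1.44), and 1.19 within states. Clec4d and Clec5a met in 218 barcodes, a ratio of 0.804 (0.698 to 0.855), and Clec4d and Clec4n in 441, a ratio of 0.881 (0.773 to 0.939). Within states these were 0.992 and 1.03. Clec4e and Clec4n met in 766 barcodes, a ratio of 0.981 (0.912 to 1.01) and 1.07 within states, and Clec4e and Clec5a in 398, a ratio of 0.940 (0.908 to 0.970) and 1.04 within states. The ratios of Clec4d with Clec4n and Clec5a thus lay below 1 in every library, whereas that of Clec4e with Clec4n did not. Trem1 had ratios of 1.14 with Clec5a, 1.07 with Clec4n, 1.14 with Clec4e and 1.11 with Clec4d. Within states these were 1.14, 1.09, 1.07 and 1.07. The within-state ratio of Clec5a with Trem1 thus lay above the 1.12 of Clec4d with Clec4e, so within states that pair did not stand apart.

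Genes outside the set were also ranked by the same r to each member. Genes with a mean under 20 CPM were left out of this ranking. Also left out were ribosomal protein genes, genes of the mitochondrial genome and genes with Gm-number or Rik names. Over the classes the genes most like each member were then Hdc (0.98), Csf1 (0.98) and Card19 (0.97) for Clec4d, and Igfbp6 (0.98), G0s2 (0.97) and Lrg1 (0.97) for Clec4e. They were Ccr1 (0.99), Mcl1 (0.98) and Hlx (0.97) for Clec4n, and Egr1 (0.97), Ccrl2 (0.95) and Slc31a2 (0.95) for Clec5a. For Trem1 they were S100a9 (0.97), G0s2 (0.97) and its relative Trem3 (0.96), and for Tyrobp Ncf1, Ptpre and Kctd12 (0.93 each). Over the states the nearest of the ranked genes were Dusp1 (0.96), Smox (0.96) and Arg2 (0.95) for Clec4d, and Dusp1 (0.92), Ccr1 (0.91) and Gda (0.91) for Clec4e. They were Arpp19, Ebna1bp2 and Eif3g (0.96 each) for Clec4n, and Psenen (0.95), Utp3 (0.94) and Cd300a (0.94) for Clec5a. Lsp1 (0.92), Lyn (0.88) and Junb (0.88) were nearest to Trem1, and Oser1, Lcp1 and G0s2 (0.90 each) to Tyrobp. Dusp1, a phosphatase of MAP kinases, was thus shared by Clec4d and Clec4e.

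The other genes of the pathway were described from lists of ligands, related receptors, adaptors, kinases, inhibitors and targets, 77 genes in all, of which 68 passed the filter on low counts in the class test. Card9 and Il6 were among the 9 that did not pass. Against monocyte/macrophage-like sums, 40 of the 68 were higher and 18 lower in neutrophil-like sums, beside a background of 29.5% higher and 37% lower. All values below are from edgeR with Benjamini-Hochberg adjustment over all genes, and each named gene kept its direction in every library.

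Of 6 ligands, 2 were higher and 2 lower. Pglyrp1, which encodes a peptidoglycan recognition protein reported to bind TREM1, was at 195 ± 44.4 CPM in neutrophil-like sums and 14.5 ± 3.88 in those of monocytes and macrophages, a log2 difference of 3.94 ± 0.20. Lgals9, which encodes galectin-9, was called higher at 0.38 (adjusted p = 0.00112), a call lost with library totals. Vim (-2.78) and Anxa5 (-3.85), which encode vimentin and annexin A5, were lower. Of 21 related receptors, 13 were higher and 7 lower, with Trem3 at 3.10 above and Trem2 (-5.44), Clec4b1 (-4.83) and Clec4a1 (-4.39) below. Trem2, a lipid receptor of macrophages that also pairs with DAP12, was at 435 ± 75.0 CPM across monocyte/macrophage-like but at 8.81 ± 2.11 in neutrophil-like sums. The TREM genes therefore lay on opposite sides of the comparison.

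Both adaptor chains were higher, Hcst, which encodes DAP10, by 1.16 and Fcer1g by 0.93. Fcer1g was at 5624 ± 500.4 CPM in neutrophil-like sums and 3367 ± 192 in those of monocytes and macrophages. Of 17 kinase, scaffold and CARD9 complex genes, 9 were higher and 3 lower. Syk was at 129 ± 19.8 against 64.5 ± 7.17 CPM, a difference of 1.20, and the Src-family kinase gene Fgr (1.94) and the exchange factor gene Vav1 (1.05) were also higher, while the scaffold gene Lat2 was lower (-4.53). Of 9 inhibitors, 3 were higher and 5 lower. Dok3 (1.44), an adaptor that restrains SYK signalling, and Ptpn6 (1.24), which encodes the phosphatase SHP-1, were higher, whereas Dok2 was lower (-1.26). Cblb, a ubiquitin ligase gene, was called lower on 2 UMIs against 113.

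Of 13 target genes 11 were higher and 1 lower. The chemokine genes Cxcl2 and Ccl3 differed most among those with many UMIs. Cxcl2 was at 15772 ± 5371 CPM against 1161 ± 365, a log2 difference of 3.97, and Ccl3 at 6283 ± 1376 against 384 ± 54.2, a difference of 4.24. Il23a, a cytokine subunit gene, was higher by 4.37 on 129 UMIs against 16. Il12b, the gene of its partner chain, was called lower on 0 UMIs against 79. The median log2 difference was 2.45 for the targets, 0.83 for related receptors, 0.27 for kinases, -0.08 for ligands and -0.36 for inhibitors.

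Among the neutrophil states the pathway genes are described with no test. Between states 1 and 3, by the rule of no overlap and a 2-fold difference, 5 of 12 related receptors were higher in state 1 and 0 lower, beside 36.8% higher and 11% lower over all genes. Of 10 targets, Egr2 was higher in state 1 and Cxcl2, Ccl3 and Ptgs2 were lower. Cxcl2 was at 6433 ± 1503 CPM in state 1 and 26684 ± 7295 in state 3. Of 5 ligands, Lgals9 and Vim were lower in state 1. Il1b, the interleukin-1 beta gene, was at 20853 ± 3398 CPM in state 2 and 8013 ± 673 in state 3. Pglyrp1 was at 547 ± 12.5 CPM in state 2 and had means of 41.6 to 183 elsewhere, so it shared its highest state with Trem1.

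The series title names neutrophils high in ICAM1, an adhesion molecule. The third question was therefore whether the receptors differed between neutrophil-like barcodes with and without an Icam1 transcript. After thinning to 600 UMIs, Icam1 was detected in 96, 152 and 141 barcodes of replicates 1, 2 and 3 and not detected in 1241, 1653 and 2025, while 760 shallower barcodes were left out. Before thinning, detected barcodes had a median of 967 UMIs and undetected ones of 961. Detection of 1 transcript is not surface protein.

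Clec4e was the 1 gene of the set that was called. Its summed level was 1667, 1952 and 2080 CPM in Icam1-detected and 1078, 1285 and 1193 CPM in Icam1-undetected barcodes. The detected values lay above the undetected ones in each library and the groups did not overlap. The log2 difference was 0.62 ± 0.10 (edgeR's quasi-likelihood test, library as a block, adjusted p = 0.000298 over 4310 genes), higher in 3 of 3 libraries. The share of barcodes with a Clec4e UMI was 48.6% ± 2.96 against 38.6% ± 2.49. Of all genes tested, 0.766% were called in either direction and 0.464% higher. The call was lost in 6 of 16 alternatives, among them without replicate 1 (0.63, adjusted p = 0.152) and without the library block (0.64, adjusted p = 0.156), while the difference stayed positive in all 16, from 0.31 to 0.80. With neutrophil state and library together as the block, an alternative chosen after seeing the data over states 1, 2 and 3, it was 0.52 ± 0.13 (edgeR, adjusted p = 0.00576). That fit left out states 0 and 4, which had as few as 5 and 6 detected barcodes in a library. It treats states of 1 library as separate pairs, so its p-value does not measure spread between libraries alone. Its adjustment was over 1684 genes, of which 51 were called.

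The other 5 genes were not called. Clec4d was at 573, 592 and 473 CPM in detected and 629, 563 and 558 in undetected barcodes, with overlapping groups and a log2 difference of -0.15 ± 0.15 (edgeR, adjusted p = 0.874). Clec4n was at 972, 1086 and 1667 against 1001, 896 and 1129, a difference of 0.24 ± 0.12 (edgeR, adjusted p = 0.601). Clec5a was at 417, 373 and 946 against 395, 346 and 551, a difference of 0.35 ± 0.16 (edgeR, adjusted p = 0.572) that was 0.05 without replicate 3. Replicate 3 had the highest detected value of both Clec4n and Clec5a. Trem1 had a difference of 0.17 ± 0.15 (edgeR, adjusted p = 0.839) and Tyrobp of -0.05 ± 0.08 (edgeR, adjusted p = 0.940). Whether Clec4e differed from these genes in its difference was not tested.

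Marker sums moved with the same split. The 10 neutrophil markers summed to 53819, 56129 and 43038 CPM in detected and 63938, 75074 and 61654 in undetected barcodes, and the 7 markers of the blood-like state to 414 to 537 against 761 to 1088. The 6 interferon markers were higher, at 7045 to 8564 against 5032 to 5958. Markers of monocytes summed to 556, 1535 and 1288 against 526, 1326 and 785. Their part in the Clec4e difference was not tested beyond the alternative by state. Within states 2 and 3 Clec4e was at 2930 and 2893 CPM in detected against 1674 and 1603 in undetected barcodes. It was at 727 against 482 in state 1 and 1741 against 1417 in state 4, and at 1552 against 1604 in state 0.

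**Figure D5:**
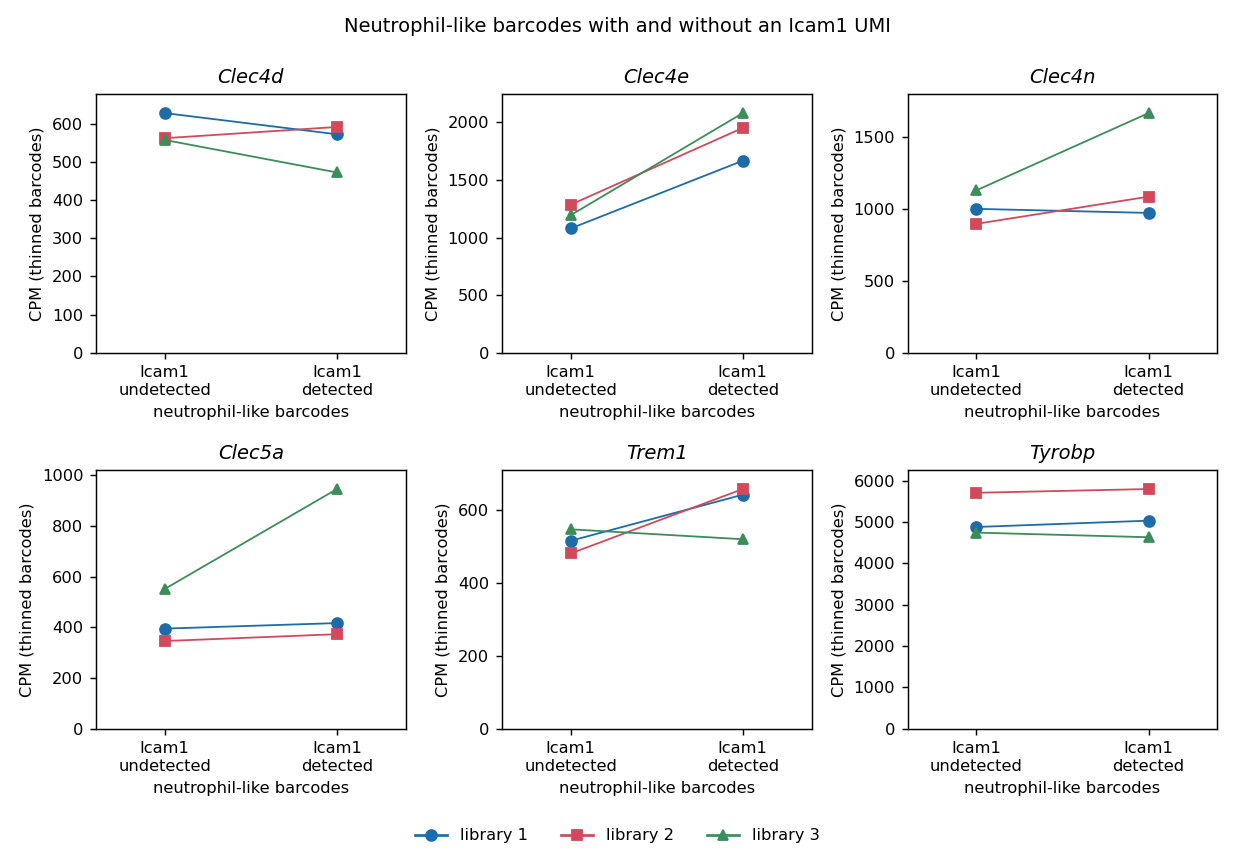
Level (CPM, thinned to 600 UMIs per barcode) of each gene in Icam1-detected and Icam1-undetected neutrophil-like barcodes, with a line joining the sums of each library. Clec4e is higher in detected barcodes in all 3 libraries (1667 to 2080 against 1078 to 1285 CPM), while the groups of the other genes overlap.

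Of the pathway lists, target genes held the calls in this split. Tnf, the tumour necrosis factor gene, was higher by 1.17 ± 0.20 (edgeR, adjusted p = 0.000865), Ccl4 by 0.38 ± 0.08 and Il1b by 0.32 ± 0.07 (adjusted p = 0.00842 for both), and 3 of 11 target genes were called in all. These counts also depended on the fit, with 0 pathway genes called without the library block, without replicate 1, without replicate 3 or in another thinning draw. The fit with state and library together as the block, over states 1, 2 and 3, has the limits given above for Clec4e. In it Tnf stayed called at 1.01 (edgeR, adjusted p = 0.00110), while Ccl4 was at 0.15 (adjusted p = 0.651) and Il1b at 0.11 (adjusted p = 0.732). DESeq2 called the same 3 genes and 0 others of the lists. In edgeR 0 genes were called among 5 ligands, 14 related receptors, 2 adaptors, 10 kinase and scaffold genes and 7 inhibitors. At an unadjusted p under 0.05 these lists held 2, 4, 0, 1 and 1 genes, beside 7 of the targets. The lowest p belonged to Anxa1 (-0.86, adjusted p = 0.440) and Lgals9 (-0.70, adjusted p = 0.513) among ligands and to Pilra (0.47, adjusted p = 0.194) and Treml4 (1.16, adjusted p = 0.328) among related receptors. Among kinases Lyn had a difference of -0.64 (adjusted p = 0.478), and among inhibitors the lowest p belonged to Tnfaip3 (1.05, adjusted p = 0.103) and Dok1 (-1.70, adjusted p = 0.663, on 2 UMIs in detected barcodes). The adaptor genes Fcer1g and Hcst had differences of 0.08 (adjusted p = 0.867) and -0.04 (adjusted p = 0.987).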

How the data were processed

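The authors deposited UMI counts per gene and barcode for each library, whole numbers with no normalization. Cell Ranger, Seurat and the mm10 build (GRCm38) are named in the submitters' processing notes, without versions. The members and gene lists were chosen with earlier results of these data known.

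From the counts, 22 barcodes with fewer than 200 genes and 107 with more than 10% mitochondrial UMIs were removed, and 14224 of 14336 remained. Scrublet marked 2 barcodes and so has not worked; an alternative leaves out the 560 highest scores. The 2000 most variable genes, less members, pathway genes and Icam1 (1977 used), gave 30 principal components, 15 neighbours and Leiden clusters at resolution 1 (scanpy 1.11.5). Clusters were named "X-like" from at least 3 markers. Unnamed were 112 barcodes led by Adm, Hspa1a and Mgarp and 116 with T-cell markers and doublet scores above 0.15. The B-or-plasma-cell-like class (77 barcodes) was too small to test. The states come from clustering neutrophil-like barcodes again, at resolution 0.5.

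UMIs were summed per library and class, since barcodes are not replicates, and the sums were tested with edgeR 4.0.16 (quasi-likelihood, TMM, filterByExpr) with library as a block, which pairs 2 sums taken from 1 library, and Benjamini-Hochberg adjustment at 0.05 over all genes. Alternatives changed the scaling, tool (DESeq2 1.42.0), filters, block, clustering, thinning and libraries. On simulated counts the fit recovered 96% of 2-fold changes between neutrophil-like sums and a single other class (6605 genes). In the Icam1 split it recovered 39% of 2-fold and 89% of 4-fold changes (4501 genes). The simulated counts had a fixed spread and no library differences but depth, and only genes above a set level were changed. Recovery in the real sums can therefore differ. Pathway genes named are up to 4 called genes with the largest log2 difference per list and comparison, or, in lists with 0 calls, the 2 genes of lowest p; those named by neutrophil state were chosen after their values were seen. A gene that this rule names is not reported here.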

Additional observations from a re-analysis of the deposited data

Results flagged for a closer look

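Clec4d differed in direction between neutrophil states in the Icam1 split. In state 4 its level was higher in Icam1-detected than in undetected barcodes in every library, at 889 against 633 CPM over the libraries, and in state 3 it was lower in every library, at 766 against 1002 CPM. These values rest on 24 and 40 Clec4d UMIs in detected barcodes, and state 4 held 6, 20 and 19 detected barcodes in the libraries. The difference between the states was not tested, nor was how often such a search finds a pair where no difference exists.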

How the results depend on the processing

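Over the 12 alternatives of each class comparison every call of a receptor gene was kept, and the Clec4e difference from monocyte/macrophage-like sums ranged from 3.98 to 4.51. Tyrobp against plasmacytoid-dendritic-cell-like sums was called higher with no filter on low counts (0.33), at Leiden resolution 0.5 (0.35), with the members among the variable genes (0.31) and without replicate 3 (0.52), and with library totals it was -0.25. Without replicate 2, 2735 genes were called in that comparison in place of 4317, and with library totals 1534 were higher and 2873 lower in place of 2197 and 2120.

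The Icam1 split depended more on the processing. With no replicate block, which ignores the pairing of sums within a library, 0 members and 0 pathway genes were called in place of 1 and 3, and 6 genes in all in place of 33. The block changed no other count of members or pathway genes by over 1.5 times. Members called fell to 0 with stricter barcode filters, at Leiden resolution 2, with members among the variable genes, and on thinning to the 50th percentile (900 UMIs). Leaving out 1 library each gave 0 to 1 members and 0 to 3 pathway genes called, with 0 of both without replicate 1. Pathway genes called were 1 with no filter on low counts, 5 with stricter barcode filters, 0 in another thinning draw and 1 with state in the block. Over all genes, 98 were called with no filter, 22 by DESeq2, 3 without replicate 1 and 20 without replicate 3. With library totals 26 were higher and 10 lower in place of 20 and 13.

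Clec4e kept its call in 10 of 16 alternatives, with 0.46 (adjusted p = 0.0459, edgeR) in another draw. It lost it at 0.31 with stricter barcode filters (adjusted p = 0.247), at Leiden resolution 2 (adjusted p = 0.388) and on thinning to 900 UMIs (adjusted p = 0.277), and at 0.39 with members among the variable genes (adjusted p = 0.0774). Differences that changed sign, none of them called, were Clec4d at 0.18 (stricter filters), 0.042 (resolution 2), 0.075 (another draw) and 0.14 (at least 2 Icam1 UMIs), and Clec5a at -0.00805 (high doublet scores left out), -0.034 (resolution 0.5) and -0.14 (at least 2 UMIs). Trem1 was at -0.017 with no filter and -0.18 with state in the block, and Tyrobp at 0.013 with library totals. Fcer1g was at -0.11 (no filter), -0.037 (members among the variable genes), -0.076 (at least 2 UMIs) and -0.17 (state in the block), and Hcst at 0.018 with library totals and 0.024 without replicate 1. Lgals9 was at 0.027 (at least 2 UMIs), Pilra at -0.10 and Dok1 at 0.48 (900 UMIs), and Lyn at 0.11 (stricter filters). The cause was not tested for any of these.

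The split rests on 389 Icam1-detected barcodes thinned to 600 UMIs, and 39% of 2-fold changes were recovered in simulation at that size. Of 384 levels and shares recomputed, 92 moved by more than the spread between replicates, 41 of them from leaving out the thinning.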
